A study of Mus musculus with 2 samples.

Results

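The genes described here are 48 genes of mitosis and cytokinesis, taken as a fixed list of symbols. They were compared between endothelial cells that lost Snail1 and control endothelial cells, on 1 Affymetrix mouse array each. A gene was read from probe sets with that single symbol in the platform annotation, and by the brightest of them where there were several (the highest mean of both arrays). Of the 48 genes, 47 had such a probe set, out of 18193 genes on the arrays. The exception was Ccnb1 (cyclin B1), which is not analysed here. Kif15, a spindle kinesin, was at 3.85 on the Snail1 KO array and 3.89 on the WT array. That is below the level filter, a mean log2 value of 3.97 (the 40th percentile of probe sets), so 46 genes were analysed.

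Both groups were primary endothelial cells, the lining cells of blood vessels, of C57/BL6 embryos at E10.5, in mid-gestation, and both carried floxed Snail1 alleles (Snail1f/f). The Snail1 KO cells were infected in culture with an adenovirus carrying Cre, and the WT cells with an adenovirus carrying βGal, a bacterial enzyme used as a control. Both were cultured with 20% serum and endothelial growth factors, and RNA was taken after a recovery of several days. How many embryos were pooled, which exons are floxed and what share of the cells recombined is not stated in the labels. No array holds cells given Cre without floxed Snail1, so Snail1 loss, Cre and its virus cannot be told apart as sources of a difference. With 1 array per group no difference could be tested, and each is given by its size.

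Snai1 itself was at 3.59 on the Snail1 KO array and 5.33 on the WT array, on the log2 scale of RMA values. All 12 endothelial markers were above the filter, 8 higher and 4 lower on the Snail1 KO array, and they summed to a log2 value of 15.15 on the Snail1 KO array and 15.03 on the WT array. Among them Cdh5 was at 11.46 in Snail1 KO against 11.34 in WT, Cldn5, with the highest difference, at 12.44 in Snail1 KO against 11.36 in WT, and Flt1, with the lowest, at 6.04 in Snail1 KO against 6.78 in WT. Before logs, the rise of Cldn5 alone was about as large as that of the endothelial sum, so that sum does not describe the whole list. Of 8 pericyte and smooth muscle markers, 6 were above the filter. Summed over all 8, their levels came to a log2 value of 9.83 on the Snail1 KO array and 11.74 on the WT array. Tagln (7.80 in Snail1 KO against 10.35 in WT) and Acta2 (9.09 in Snail1 KO against 10.94 in WT) made most of that difference. The 6 above the filter were split, 4 lower and 2 higher, so the sum does not describe the whole list. Of 6 fibroblast markers, 4 were above the filter, 2 lower and 2 higher. All 6 summed to 11.80 on the Snail1 KO array and 11.84 on the WT array. Thy1 (11.37 in Snail1 KO against 11.43 in WT) made most of both sums, so they do not describe the whole list. Among the 6, Col3a1 was at 6.33 in Snail1 KO against 7.33 in WT. The 6 leukocyte markers, 3 above the filter, summed to 9.21 in Snail1 KO against 9.13 in WT. The 3 erythroid markers with a probe set, 2 above the filter, summed to 5.98 in Snail1 KO against 6.16 in WT. The part that cells of other types have in the values below was not tested.

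A cell enters mitosis when Cdk1, bound to cyclins A and B, is switched on by Cdc25 phosphatases. Spindle motors and kinetochores then line up the chromosomes, and the spindle checkpoint holds back the anaphase-promoting complex until each chromosome is attached. That complex marks securin and cyclin B for destruction, the sister chromatids part, and the central spindle and a contractile ring divide the cell. Most of these genes are transcribed late in the cycle, in G2 and M, under FoxM1, B-Myb and the MuvB complex, so their mRNA levels are widely read as a measure of cycling cells.

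Most of these genes were slightly lower on the Snail1 KO array, and no difference reached 2-fold. Of the 46 genes, 40 were lower and 6 higher, which is 87.0% lower, against 50.9% of the 12874 genes analysed on the arrays. Their median log2 difference, Snail1 KO minus WT, was -0.27, a median 1.21-fold lower, against -0.01 over all analysed genes. The range ran from -0.75 for Plk1 to 0.22 for Nusap1. At least 1.5-fold lower were 10 of the 46 (21.7%), against 6.08% of all analysed genes. That count was 6 of 46 (13.0%) when all probe sets of a gene were averaged, against 4.71% of all genes. It was 4 of 36 (11.1%) without probe sets that can bind several transcripts, against 5.59%. None was at least 1.5-fold higher, where the share of all analysed genes was 5.06%. At 2-fold, which 1.84% of all analysed genes passed in the lower direction and 0.971% in the higher, no gene of the list passed in either. Fewer cells in mitosis and less of these mRNAs per dividing cell cannot be told apart in RNA from whole cultures.

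**Figure D1:**
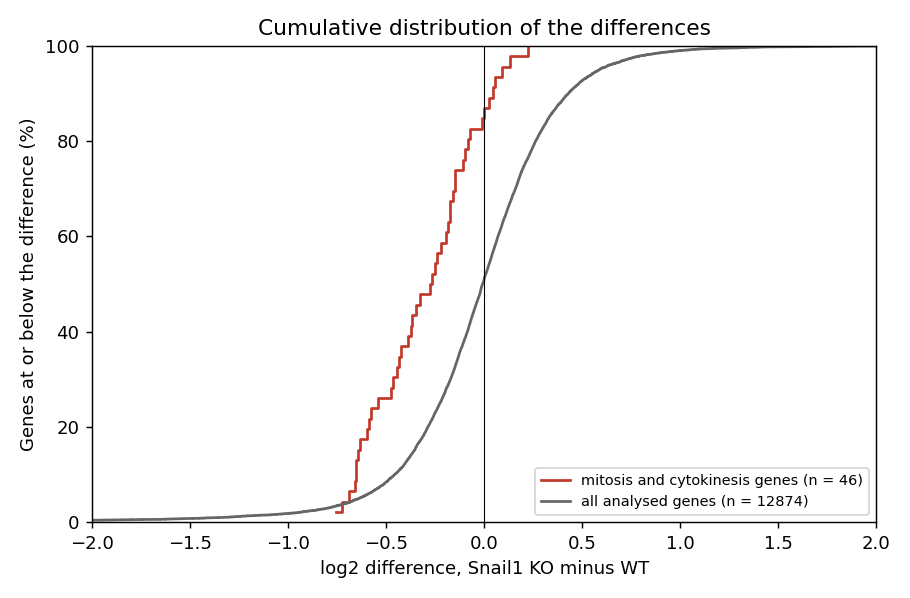
Share of genes (vertical axis, percent) at or below each log2 difference, Snail1 KO minus WT (horizontal axis), for the 46 mitosis and cytokinesis genes (red) and all 12874 analysed genes (grey). The share of genes with a difference below 0 was 87.0% of the red set and 50.9% of the grey set.

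Without replicate arrays, the spread between probe sets of a gene is the nearest measure of error, and it covers probe error only. The pooled SD of the log2 difference between probe sets of the same gene was 0.23 over 69 probe sets of these genes, and 0.30 over 16489 probe sets of all analysed genes. The robust SD of the difference over all analysed genes was 0.32. Many of the single differences below are within 1 such SD. Of the 25 genes with several probe sets above the filter, 12 were lower in all of them, 12 had both signs and Cenpf was higher in all. Taken one by one, 69 of 90 probe sets of these genes were lower (76.7%, median -0.22), against 47.2% of 23310 probe sets of all genes (median 0.02). In the second brightest probe set, 17 of the 25 genes were lower, with a median of -0.14, against 44.9% lower and a median of 0.04 over 6053 genes that have one. There 2 of the 25 were at least 1.5-fold lower, against 4.97% of those genes. In their brightest probe sets the same 25 genes had 22 lower and a median of -0.28. That alternative was chosen after the values were seen.

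**Figure D2:**
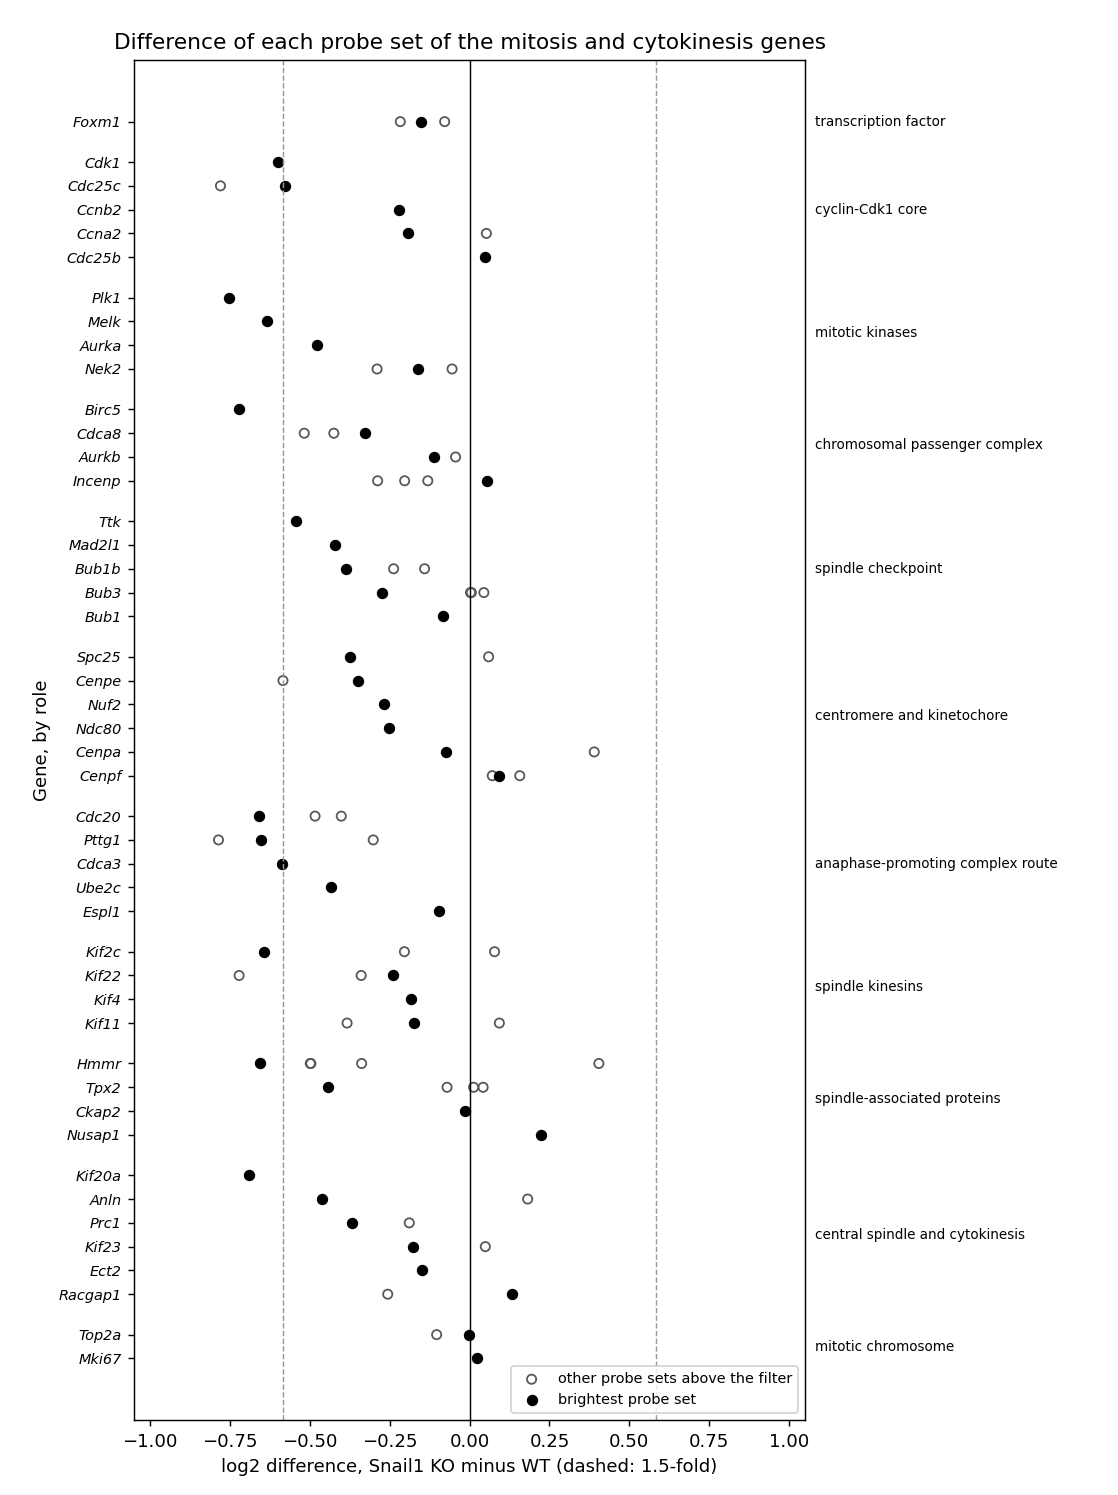
Log2 difference, Snail1 KO minus WT (horizontal axis), of the brightest probe set (filled) and of other probe sets above the filter (open) of each of the 46 genes, grouped by role. Filled points lie left of 0 for 40 genes, and the open points of Hmmr, Cenpa and Anln reach furthest to the right, at 0.40, 0.39 and 0.18.

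The promoters of these genes are shown next because their shared elements are a property the list did not use. In mouse and human, many late cell cycle genes carry a cell cycle genes homology region (CHR), most often with the letters TTTGAA, which MuvB binds near the start of transcription. They often carry CCAAT boxes, bound by NF-Y, upstream of it. Snail proteins bind E-boxes with the letters CACCTG. RefSeq promoter windows of GRCm38.p6, each of 300 bases (250 before and 50 after the annotated start), were matched by symbol for 41 of the 48 genes. Foxm1, Ccna2, Cdc25c, Aurkb, Incenp, Tpx2 and Kif20a had no entry. All motifs were searched on both strands. The stretches below run from 120 bases before the start to 50 after it, 5′ to 3′ along the gene, and capitals mark these 3 motifs on either strand, together with TTTAAA, a variant of the CHR. They show 3 genes that were at least 1.5-fold lower and hold TTTGAA (Plk1, Cdc20, Cdk1), 1 that was as low without it (Birc5), 1 that holds it and hardly differed (Top2a), and the gene with the highest difference (Nusap1).
Plk1, chr7:122159315-122159484, plus strand: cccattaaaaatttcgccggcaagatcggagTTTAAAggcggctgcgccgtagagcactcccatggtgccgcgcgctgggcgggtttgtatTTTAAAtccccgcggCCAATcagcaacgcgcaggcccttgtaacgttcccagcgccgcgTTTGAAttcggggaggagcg
Cdc20, chr4:118437294-118437463, minus strand: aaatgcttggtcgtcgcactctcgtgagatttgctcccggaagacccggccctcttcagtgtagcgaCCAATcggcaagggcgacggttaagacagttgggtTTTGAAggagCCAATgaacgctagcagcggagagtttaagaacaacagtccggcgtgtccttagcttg
Cdk1, chr10:69352863-69353032, minus strand: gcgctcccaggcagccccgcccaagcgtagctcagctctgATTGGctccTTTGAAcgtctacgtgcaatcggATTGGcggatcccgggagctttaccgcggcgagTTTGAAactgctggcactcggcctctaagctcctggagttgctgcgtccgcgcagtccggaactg
Birc5, chr11:117849117-117849286, plus strand: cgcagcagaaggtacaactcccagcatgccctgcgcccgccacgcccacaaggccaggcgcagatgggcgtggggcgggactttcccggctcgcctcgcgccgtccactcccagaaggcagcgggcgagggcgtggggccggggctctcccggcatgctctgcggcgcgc
Top2a, chr11:99024140-99024309, minus strand: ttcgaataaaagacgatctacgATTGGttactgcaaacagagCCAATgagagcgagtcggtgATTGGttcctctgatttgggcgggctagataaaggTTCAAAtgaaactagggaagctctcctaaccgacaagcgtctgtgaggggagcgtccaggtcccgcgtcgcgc
Nusap1, chr2:119618178-119618347, plus strand: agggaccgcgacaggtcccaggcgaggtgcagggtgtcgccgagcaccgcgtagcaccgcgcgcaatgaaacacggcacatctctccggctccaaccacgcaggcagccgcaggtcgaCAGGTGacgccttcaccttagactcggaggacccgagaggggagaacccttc

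TTTGAA was found in the windows of 30 of the 41 genes (73.2%), against 20.2% of all 27025 genes with a window and 14.1% of the 10371 of them that were analysed on the arrays. In 26 of the 41 genes a match began between 30 bases before and 40 bases after the start, against 4.23% of all genes, in a range set after the positions were seen. In Cdk1 it lay 15 bases before the start, in Cdc20 18 before, in Top2a 23 before on the other strand, and in Plk1 30 after. CCAAT was found in 31 of the 41 (75.6%), against 41.1% of all genes. In the 23 genes with a CCAAT upstream of such a TTTGAA, the nearest began a median of 34 bases before it, from 9 to 153. The distance was between 25 and 45 bases in 13 of the 23, among them Plk1 (44), Cdc20 (35), Cdk1 (33) and Top2a (35). These distances were not measured over all genes, so whether such a spacing is particular to this list was not tested. The variant TTTAAA was in 9 of the 41 (22.0%), against 14.9% of all genes, and Ccnb1, whose mRNA was not measured here, has it 42 bases before its start. The letters CACCTG were in 3 of the 41 windows (Nusap1, Ect2 and Ckap2), or 7.32%, against 22.6% of all genes. These matches describe letters in a window of RefSeq sequence, not binding.

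**Figure D3:**
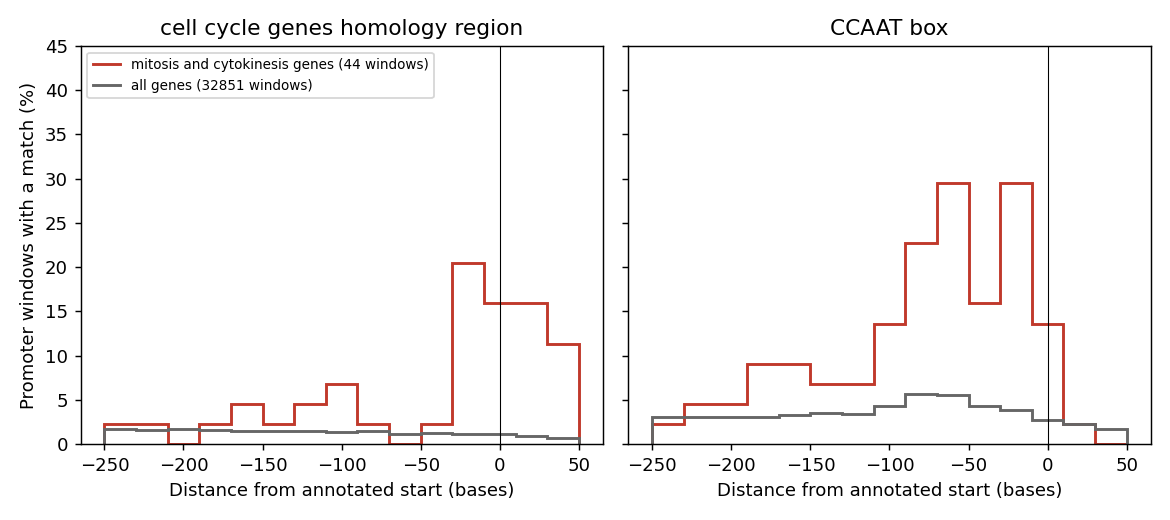
Share of promoter windows (vertical axis, percent) with a match in each bin of 20 bases, by distance from the annotated start (horizontal axis, bases), for 44 windows of 41 mitosis and cytokinesis genes (red) and 32851 windows of all genes (grey). Left, TTTGAA, which in the red windows gathers around the start; right, CCAAT, which gathers upstream of it.

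Having TTTGAA anywhere in the promoter window did not go with a larger difference among these genes. The split used neither its distance from the start nor the TTTAAA variant, so it does not compare genes with and without a CHR near the start. The 29 analysed genes with TTTGAA had a median log2 difference of -0.28, from -0.75 to 0.13, and 26 were lower. The 10 analysed genes with a window but no TTTGAA had a median of -0.31, from -0.72 to 0.22, and 8 were lower. Of the 9 genes at least 1.5-fold lower that had a window, 6 held TTTGAA, and Melk, Birc5 and Pttg1 did not. In Kif2c, which held it, the only match lay 103 bases before the start. Cenpe, without TTTGAA, had TTTAAA 14 bases after its start.

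Foxm1, the forkhead factor that drives late cell cycle genes, was at 6.96 on the Snail1 KO array and 7.11 on the WT array, a log2 difference of -0.15. Its 3 probe sets above the filter ranged from -0.22 to -0.08. In the core of cyclins, Cdk1 and its activators, 4 of 5 genes were lower, with a median of -0.22. Cdk1, the kinase that starts mitosis, was at 10.24 on the Snail1 KO array and 10.84 on the WT array (1.52-fold lower, by its only probe set). Its partners differed less. Ccnb2, cyclin B2, was at 9.77 on the Snail1 KO array and 9.99 on the WT array. Ccna2, cyclin A2, was at 9.70 in Snail1 KO against 9.89 in WT, while its other probe set differed by 0.05. The phosphatases that activate Cdk1 were unlike each other. Cdc25c was at 5.69 on the Snail1 KO array and 6.27 on the WT array (1.49-fold lower), with its other probe set at -0.78, and Cdc25b was at 7.20 in Snail1 KO against 7.16 in WT.

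All 4 mitotic kinases outside the complexes were lower, with a median of -0.55, which rests on a single probe set above the filter for all but Nek2. Plk1, polo-like kinase 1, which acts at centrosomes, kinetochores and the midzone, was at 8.64 on the Snail1 KO array and 9.39 on the WT array, and its fold of 1.69 was the largest in the list. Melk, a kinase with peak expression in G2 and M, was at 7.54 on the Snail1 KO array and 8.17 on the WT array (1.55-fold lower). Each was read by a single probe set, so neither has a check within the array. Aurka, the centrosomal Aurora kinase, was at 8.84 in Snail1 KO against 9.31 in WT (1.39-fold lower). Nek2, which helps centrosomes to part, was at 8.19 on the Snail1 KO array and 8.35 on the WT array, and its 3 probe sets ranged from -0.29 to -0.05.

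The chromosomal passenger complex, which corrects wrong attachments and later prepares cytokinesis, had members with unequal differences and a median of -0.22, which was -0.34 with probe sets averaged. Birc5, survivin, was at 9.68 on the Snail1 KO array and 10.41 on the WT array (1.65-fold lower, by 1 probe set). Cdca8, borealin, was at 9.76 in Snail1 KO against 10.09 in WT, and all 3 of its probe sets were lower, from -0.52 to -0.33. The kinase subunit Aurkb was at 7.53 on the Snail1 KO array and 7.64 on the WT array. Incenp, the scaffold, was at 10.04 in Snail1 KO against 9.99 in WT, and its other 3 probe sets above the filter were lower, down to -0.29, so its sign depends on the probe set.

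All 5 spindle checkpoint genes were lower in their brightest probe sets, with a median of -0.39, and none reached 1.5-fold. With the median of all probe sets 3 of the 5 were lower, and the group median was -0.14. Ttk, the Mps1 kinase that starts the checkpoint signal, was at 7.78 on the Snail1 KO array and 8.32 on the WT array (1.46-fold lower). Mad2l1, which holds Cdc20 in the checkpoint complex, was at 9.57 in Snail1 KO against 10.00 in WT (1.34-fold lower). Bub1b, BubR1 of the same complex, was at 7.95 on the Snail1 KO array and 8.33 on the WT array, and was lower in all 3 probe sets. Bub1, a kinase of the kinetochore, was at 8.66 in Snail1 KO against 8.74 in WT. Bub3, its binding partner, was at 10.97 on the Snail1 KO array and 11.25 on the WT array. The differences of its other 3 probe sets above the filter lay between 0.00 and 0.04. These were dimmer, with mean log2 values of 8.19, 5.07 and 4.03, the last close to the filter.

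At the centromere and kinetochore, 5 of 6 genes were lower, with a median of -0.26. That median was 0.06 without probe sets that bind several transcripts, and 0.11 in the second brightest probe sets. Spc25, Nuf2 and Ndc80 are subunits of the Ndc80 complex, which grips microtubules. Spc25 was at 9.17 on the Snail1 KO array and 9.54 on the WT array, Nuf2 at 7.76 in Snail1 KO against 8.02 in WT, and Ndc80 at 7.47 in Snail1 KO against 7.72 in WT. A dimmer Spc25 probe set differed by 0.06. Cenpe, a kinetochore motor, was at 8.45 on the Snail1 KO array and 8.80 on the WT array, with its other probe set at -0.58. Cenpa, the centromeric histone, was at 9.93 in Snail1 KO against 10.00 in WT, while a further probe set gave 0.39. Cenpf, a large kinetochore protein, was the 1 gene that was higher in all of several probe sets, at 8.79 on the Snail1 KO array and 8.69 on the WT array, from 0.07 to 0.16.

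All 5 genes around the anaphase-promoting complex were lower, with a median of -0.59, which was -0.35 over the 4 read without probe sets that can bind several transcripts. Cdc20, its mitotic activator, was at 10.38 on the Snail1 KO array and 11.04 on the WT array (1.58-fold lower), and its 3 probe sets ranged from -0.66 to -0.40. Pttg1, securin, which blocks separase until anaphase, was at 11.18 in Snail1 KO against 11.83 in WT (1.57-fold lower), with 3 probe sets from -0.79 to -0.30. These were the 2 genes past 1.5-fold that were lower in each of several probe sets above the filter. Ube2c, the ubiquitin-conjugating enzyme of the complex, was at 11.34 on the Snail1 KO array and 11.77 on the WT array (1.35-fold lower). Cdca3, a mitotic entry factor that is itself a substrate of the complex, was at 8.64 in Snail1 KO against 9.23 in WT, just past 1.5-fold, where Cdc25c was just short of it. Espl1, separase, which cuts cohesin, was at 7.25 on the Snail1 KO array and 7.34 on the WT array.

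**Figure D4:**
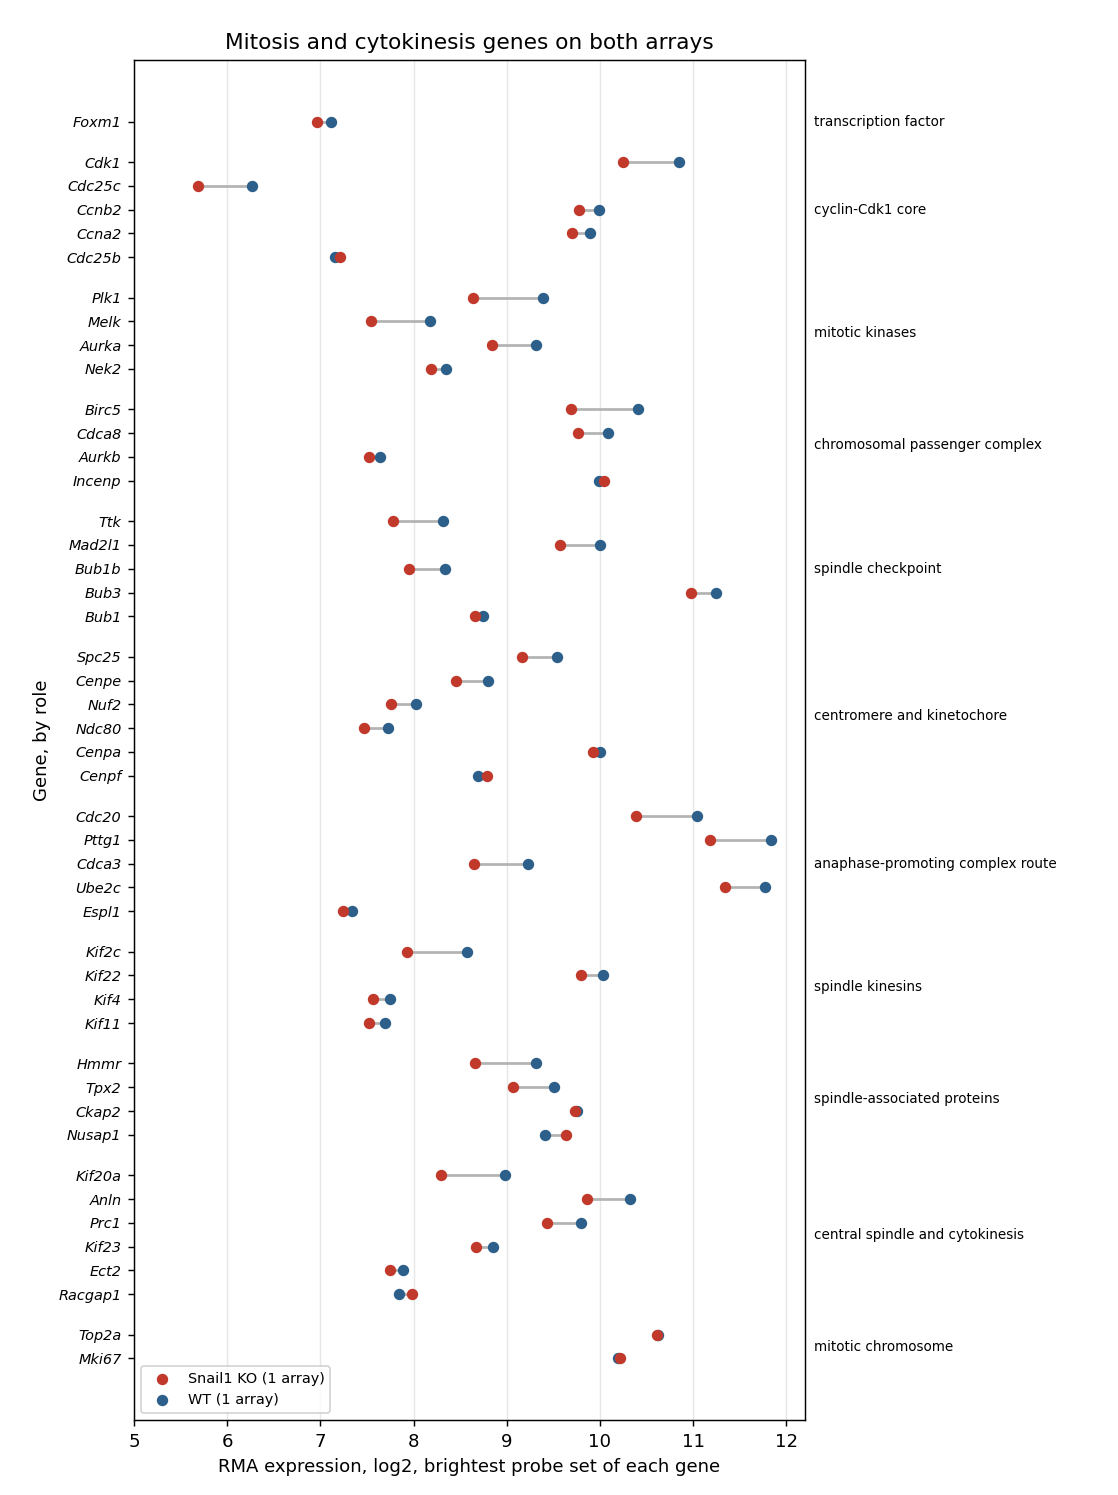
RMA expression (log2, horizontal axis) of the brightest probe set of each of the 46 genes on the Snail1 KO array (red) and the WT array (blue), grouped by role, with 1 array per group. The red point lies left of the blue one for 40 genes, most widely for Plk1 (8.64 in Snail1 KO against 9.39 in WT), while the points of Top2a and Mki67 nearly coincide.

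All 4 analysed spindle kinesins were lower, with a median of -0.21. Kif2c, the depolymerase MCAK, was at 7.93 on the Snail1 KO array and 8.58 on the WT array (1.56-fold lower), with other probe sets at -0.20 and 0.08. Kif22, a chromokinesin, was at 9.79 in Snail1 KO against 10.03 in WT, and its 3 probe sets ranged from -0.72 to -0.24. Kif11, the motor that pushes spindle poles apart, was at 7.52 on the Snail1 KO array and 7.69 on the WT array, with probe sets from -0.38 to 0.09. Kif4, which compacts chromosomes and shortens midzone microtubules, was at 7.56 in Snail1 KO against 7.74 in WT. Among proteins that bind spindle microtubules, 3 of 4 were lower, with a median of -0.23 that became 0.01 with the median of all probe sets. Hmmr, a spindle protein that is also a hyaluronan receptor, was at 8.66 on the Snail1 KO array and 9.32 on the WT array (1.57-fold lower). Of its 5 probe sets, 4 were lower and 1 differed by 0.40. Tpx2, the activator of Aurora A, was at 9.06 in Snail1 KO against 9.51 in WT, but its other 3 probe sets lay between -0.07 and 0.04. Nusap1, which bundles microtubules around chromosomes, was at 9.63 on the Snail1 KO array and 9.41 on the WT array, and Ckap2 was at 9.74 in Snail1 KO against 9.75 in WT.

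In the central spindle and cytokinesis group 5 of 6 genes were lower, with a median of -0.27, which was -0.14 with probe sets averaged. Kif20a, the kinesin that brings the passenger complex and Plk1 to the midzone, was at 8.30 on the Snail1 KO array and 8.99 on the WT array (1.61-fold lower, by 1 probe set). Anln, anillin of the contractile ring, was at 9.86 in Snail1 KO against 10.32 in WT, with a dimmer probe set at 0.18. Prc1, the bundler of midzone microtubules, was at 9.43 on the Snail1 KO array and 9.80 on the WT array, and lower in both probe sets. The subunits of centralspindlin went separate ways in their brightest probe sets. Kif23 was at 8.67 on the Snail1 KO array and 8.85 on the WT array, and Racgap1 at 7.98 in Snail1 KO against 7.85 in WT, while each had a probe set of the opposite sign. Ect2, the exchange factor that turns on RhoA at the cleavage site, was at 7.74 on the Snail1 KO array and 7.89 on the WT array.

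Mki67 and Top2a, which are widely used as proliferation markers, hardly differed. Mki67, which coats mitotic chromosomes, was at 10.22 on the Snail1 KO array and 10.19 on the WT array, by its only probe set. Top2a, which untangles sister DNA, was at 10.62 on both, with another probe set at -0.10.

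Other cell cycle lists, which hold no gene of the 48, were read the same way. Over all analysed genes, 50.9% were lower and 6.08% at least 1.5-fold lower. Of 25 other kinetochore subunits, 21 were lower (84.0%) and 4 higher, with a median of -0.18. At least 1.5-fold lower were 2 of the 25, which is close to the share over all genes. Whether this list or the mitosis genes had the lower median depended on the probe sets. With the median of all probe sets it was -0.28, against -0.17 for the mitosis genes. In the second brightest probe sets it was -0.44, against -0.14. Without probe sets that can bind several transcripts it was -0.16, against -0.27. Cenph, of the inner kinetochore, was at 6.41 on the Snail1 KO array and 7.11 on the WT array (1.62-fold lower), and Spc24, the partner of Spc25, at 6.74 in Snail1 KO against 7.41 in WT (1.59-fold lower). Cenpq and Cenpt differed by -0.56 and -0.54. Condensin, which folds mitotic chromosomes, had 5 of 8 genes lower and a median of -0.09, with Ncapg at 6.77 on the Snail1 KO array and 7.45 on the WT array. That median was 0.05 with the median of all probe sets.

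Cohesin and its regulators had 4 of 12 genes lower and 8 higher, with a median of 0.14. Its lowest genes were Cdca5, sororin, at 8.54 on the Snail1 KO array and 9.15 on the WT array, and Sgo2a, a shugoshin, at 7.86 in Snail1 KO against 8.43 in WT. Pds5a, a regulator of cohesin on chromatin, was the highest, at 8.37 in Snail1 KO against 7.78 in WT. Genes of the anaphase-promoting complex, 12 subunits and the coactivator Fzr1, had 5 of 13 lower and a median of 0.06, which was -0.26 in the second brightest probe sets. The subunits Anapc1 (0.41), Cdc26 (-0.41) and Anapc10 (-0.40) had the largest log2 differences, and other probe sets of Anapc1 and Cdc26 had the opposite sign. Genes of G1-S and DNA replication had 11 of 20 lower and 9 higher, with a median of -0.05. With the median of all probe sets it was -0.15, near the -0.17 of the mitosis genes in that reading. With probe sets averaged it was -0.02, against -0.19 for the mitosis genes. Gins2, of the replicative helicase, was at 8.08 on the Snail1 KO array and 8.70 on the WT array (1.54-fold lower), and Rrm2, of ribonucleotide reductase, at 10.77 in Snail1 KO against 11.29 in WT.

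Of 12 genes of the Myb-MuvB and DREAM complexes, which switch late cell cycle genes on or off, 3 were lower and 9 higher, with a median of 0.17. Tfdp2, a dimer partner of E2F, was at 7.84 on the Snail1 KO array and 6.84 on the WT array, just short of 2-fold, but the log2 differences of its 3 probe sets went down to 0.12. The pocket proteins Rbl2 and Rbl1 were higher by log2 differences of 0.33 and 0.30, and E2f5 was lower, at 7.16 in Snail1 KO against 7.67 in WT. Brakes on the cycle had 6 of 12 genes lower and a median of -0.03. Among them Gadd45a, a stress-responsive inhibitor of Cdk1, was at 7.74 on the Snail1 KO array and 8.64 on the WT array (1.87-fold lower), and the antiproliferative gene Btg1 at 11.10 in Snail1 KO against 10.41 in WT (1.61-fold higher). Ccng2, an atypical cyclin linked to arrest, was at 8.26 on the Snail1 KO array and 7.79 on the WT array. Whether these lists differ from the mitosis genes was not tested.

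**Figure D5:**
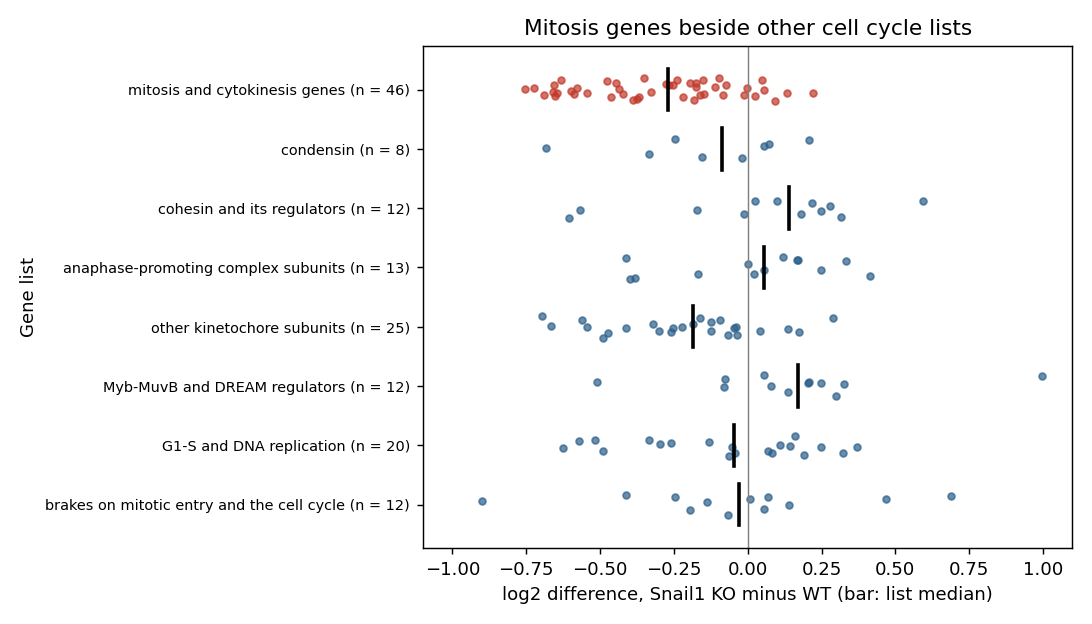
Log2 difference, Snail1 KO minus WT (horizontal axis), of each analysed gene (points) of the 46 mitosis and cytokinesis genes (red) and of 7 other cell cycle lists (blue), with the list median as a black bar. In the brightest probe sets, medians run from -0.27 for the mitosis genes to 0.17 for the Myb-MuvB and DREAM regulators.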

How the data were processed

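RNA of 2 cultures was hybridised, 1 array per group, and the titles gave each array's group. The values deposited by the authors are log2 expression, 1 for each probe set on each array; the submitters' processing notes name RMA and affy, with no version. RMA includes quantile normalization, which hides a change of total mRNA and can compress small folds. The sorted values of both arrays differ by at most 0.133. No detection calls were used, so signal over background is unknown, and the number of arrays limits the precision.

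Of 45101 probe sets, 64 are controls, 34945 carry 1 symbol in GEO's platform annotation, 932 several and 9160 none there. The log2 difference is Snail1 KO minus WT, read from the brightest probe set of each gene. Genes were counted by size, at 1.5-fold and 2-fold, and no p-value was computed. The members and lists were chosen with earlier results of these data known. All 48 members could be named, up to 4 genes of each other cell cycle list by size of difference, up to 2 of each marker list, and Snai1, Cdh5 and Pecam1. Alternatives concerned the probe sets, the filter and centring. Motifs were matched in RefSeq windows with Python 3.11.15 and pandas 2.3.3.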

Additional observations from a re-analysis of the deposited data

How the results depend on the processing

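The 8 alternatives read from 25 to 47 of the genes. In each the median of the genes read stayed negative, from -0.14 (the 25 genes) to -0.27. None of the genes passed 1.5-fold in the higher direction or 2-fold in either. The number at least 1.5-fold lower was 6 of 46 when all probe sets were averaged (574 of 12191 analysed genes). It was 4 of 36 without probe sets whose suffix marks several transcripts (_x_at, _s_at, _a_at; 630 of 11269), and 9 of 45 when _a_at sets were kept (750 of 12549). In the second brightest probe set, which 25 genes have, 17 genes were lower and 2 at least 1.5-fold lower, against 301 of 6053 analysed genes. These last 2 alternatives were chosen after the data had been seen, and fewer genes can be read under each of the reduced sets. The sign of single genes changed in 9 of 25 under the second brightest probe set and in 7 of 45 under the median of probe sets, among them Tpx2 (-0.44, against 0.03 under that median) and Racgap1. Without a filter, or with it at the 60th percentile, no gene changed sign. No paired analysis was possible because each group holds 1 array, and for the same reason no array could be left out.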
